A study of Homo sapiens with 17 samples.

Results

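The D-type cyclin genes CCND1, CCND2 and CCND3, the genes of their kinase partners CDK4 and CDK6, and the genes of 2 proteins that inhibit cyclin-CDK complexes, CDKN1B (p27) and CDKN2C (p18), were followed across RNA-seq libraries of 786-O cells. These 7 genes were chosen by symbol from the 27315 genes of the deposited table, with earlier results of these data known. Of these, 6 passed the filter on low values and CCND2 did not. 786-O is a human clear cell renal carcinoma line without working VHL, so VHL does not mark HIF2a protein, encoded by EPAS1, for degradation in any group. HIF2a protein was not measured here. All groups carried a pLenti CRISPR-V2 lentivirus made in 293T packaging cells, with Cas9 and 1 guide, and were kept under antibiotic selection. A HIF2a experiment had 3 libraries with guide sg4, 3 with guide sg6 and 3 with a scrambled guide. A USP37 experiment had 3 libraries with guide sg3, 3 with guide sg9 and 2 with its own scrambled guide, numbered 2 and 3. USP37 is a deubiquitinase, and the title of the series places it upstream of HIF2a; the question asked here is how the genes of G1 progression responded to each targeting. Clonal isolation is not described in the labels, so each library is treated as a mixed population in which edited and unedited cells, and fewer expressing cells or less RNA per cell, cannot be told apart. Guide sequences were not used here.

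D-type cyclins are made in response to growth signals, bind CDK4 or CDK6, and direct these kinases to the retinoblastoma protein RB. Phosphorylated RB releases E2F transcription factors, which switch on genes for DNA synthesis. CDKN2C belongs to the INK4 family, which binds CDK4 and CDK6 directly, and CDKN1B belongs to the CIP/KIP family, which binds assembled cyclin-CDK complexes. In clear cell renal carcinoma CCND1 is a known HIF2a target gene.

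The authors' table holds batch-corrected expression after a variance-stabilising transformation (VST), a log2-like scale on which 1 unit is close to a 2-fold change for well expressed genes and less than that near its floor. Levels of different genes are not comparable, because the values are not scaled to gene length. A gene was called at a limma adjusted p under 0.05 among 12484 tested genes, and ± gives the SD over libraries. The p-values measure the spread between the libraries of these groups, which may be technical. The targeted genes checked the labels: EPAS1 stood at 11.91 ± 0.13 in the HIF2a control, 9.54 ± 0.14 with sg4 and 10.34 ± 0.20 with sg6. USP37 stood at 9.24 ± 0.13 in its control (n = 2), 8.33 ± 0.10 with sg3 and 8.13 ± 0.14 with sg9. EPAS1 was also lower with the USP37 guides, at 11.47 ± 0.15 with sg3 and 11.37 ± 0.21 with sg9 against 12.14 ± 0.04 in that control. USP37 was lower with the HIF2a guides in turn, at 8.55 ± 0.13 with sg4 and 8.49 ± 0.31 with sg6 against 8.96 ± 0.24 in the control (difference -0.44, SE 0.12, limma adjusted p = 0.00903). All 7 of 7 markers of the renal line (PAX8, PAX2, VIM, KRT8, KRT18, CDH6 and CDH16) were expressed, with a summed level of 82.3 to 84.4 across libraries. Of the 6 markers of 293T cells only NEFL passed the filter, and LIN28B was near the floor. Of the 7 leukocyte markers only CSF1R passed the filter, but library 3 of the USP37 control had PTPRC at 6.68 and CD3E at 6.78, the highest value of any library for both, and the highest summed leukocyte level, 40.9. Libraries 2 and 3 of HIF2a sg6 and library 2 of the HIF2a control lay farthest from the rest of their groups, with a median absolute difference over genes of 0.187, 0.187 and 0.142. Some calls that changed without these libraries are named below, and those of the pathway lists are given mainly as counts.

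The promoter windows of members whose response differed between the experiments are shown because they can be read for the core of the HIF response element, ACGTG or GCGTG. Each is the 250 bases upstream of a start site from RefSeq on GRCh38.p14, written along the gene's strand, with matches on either strand in capitals; a match on the opposite strand reads CACGT or CACGC, and overlapping matches form CACGTG. For 5 of the 7 members the table gave windows, 10 in all; CCND1 and CCND2 had no entry.
CDK4, chr12:57752311-57752560, minus strand: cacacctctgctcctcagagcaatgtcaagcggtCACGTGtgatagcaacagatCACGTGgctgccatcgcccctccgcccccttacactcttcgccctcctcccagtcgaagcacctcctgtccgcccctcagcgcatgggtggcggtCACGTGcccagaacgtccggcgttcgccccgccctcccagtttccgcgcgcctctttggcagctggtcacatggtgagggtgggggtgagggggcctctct
CDKN1B, chr12:12717118-12717367, plus strand: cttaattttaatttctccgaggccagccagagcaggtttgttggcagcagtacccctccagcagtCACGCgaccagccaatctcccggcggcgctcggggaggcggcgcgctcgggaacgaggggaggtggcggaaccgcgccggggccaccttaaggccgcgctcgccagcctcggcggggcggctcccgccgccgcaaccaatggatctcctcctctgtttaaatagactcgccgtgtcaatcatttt
CDKN2C upstream window, chr1:50960495-50960744, plus strand: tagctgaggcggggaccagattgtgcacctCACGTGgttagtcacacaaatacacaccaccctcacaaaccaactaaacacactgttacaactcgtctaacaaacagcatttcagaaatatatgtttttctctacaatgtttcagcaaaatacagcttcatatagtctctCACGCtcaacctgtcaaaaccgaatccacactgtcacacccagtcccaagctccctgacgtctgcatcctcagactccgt
CDKN2C middle window, chr1:50968456-50968705, plus strand: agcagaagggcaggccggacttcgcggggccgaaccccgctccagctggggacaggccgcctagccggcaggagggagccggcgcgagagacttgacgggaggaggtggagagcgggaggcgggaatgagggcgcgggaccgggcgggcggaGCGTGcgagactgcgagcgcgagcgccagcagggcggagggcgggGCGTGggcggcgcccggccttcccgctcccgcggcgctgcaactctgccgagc
CDKN2C downstream window, chr1:50969995-50970244, plus strand: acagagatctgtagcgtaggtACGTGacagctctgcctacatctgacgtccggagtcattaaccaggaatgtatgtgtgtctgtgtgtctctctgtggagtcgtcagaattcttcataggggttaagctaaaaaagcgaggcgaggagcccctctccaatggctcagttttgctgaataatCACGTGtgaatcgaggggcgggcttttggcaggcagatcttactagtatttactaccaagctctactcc

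The CDK4 window held the core at 3 places, all of them the palindrome CACGTG. The CDKN1B window held it at 1 place and each CDKN2C window at 2 places. CDK6 had 1 window with 3 places and another with 0, and CCND3 had 1 window with 1 place and others with 0. The background is high: 43.2% of 35116 windows of the same length held ACGTG or GCGTG on either strand, and 6.3% held CACGTG. A match describes the letters only and is not a binding site.

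The clearest change of the group was in CCND1, the D-type cyclin gene known as a HIF2a target. CCND1 mRNA stood at 13.31, 13.53 and 13.35 in the HIF2a control libraries, at 11.81, 11.53 and 11.65 with sg4 and at 12.04, 11.79 and 11.75 with sg6. All 6 guide libraries lay more than 1 log2 unit below every control library, and the groups did not overlap. CCND1 fell by 1.64 with the mean of the HIF2a guides (SE 0.08, limma adjusted p = 2.18e-12), a level 3.11-fold lower. The value was -1.74 for sg4 alone (limma adjusted p = 1.11e-11) and -1.54 for sg6 alone (limma adjusted p = 1.03e-10). Within libraries of the same number the difference was -1.39, -1.87 and -1.65. CCND1 overlaps LTO1 on the opposite strand. Library preparation did not mark strand, so reads of these genes cannot be told apart in the overlap.

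With the USP37 guides CCND1 fell too, by a smaller step. It stood at 12.72 and 12.86 in the USP37 control libraries, at 12.16, 12.00 and 12.14 with sg3 and at 11.97, 11.97 and 11.79 with sg9. Here as well 6 of 6 guide libraries were below both control libraries. The mean of the guides fell by 0.79 (SE 0.10, limma adjusted p = 2.72e-06), a level 1.72-fold lower, with -0.69 for sg3 and -0.88 for sg9. Without control library 3, which had the leukocyte markers, the value was -0.72 (limma adjusted p = 0.000573). The within-number differences were -0.74 and -0.90. The USP37 effect was smaller in size than the HIF2a effect by 0.85 (SE 0.13, limma adjusted p = 3.13e-05). That comparison involves different starting levels, because the USP37 control differed from the HIF2a control by -0.61 for CCND1 (SE 0.11, limma adjusted p = 0.000190), and control and experiment cannot be told apart. From high to low the groups ran HIF2a control, USP37 control, USP37 sg3, USP37 sg9, HIF2a sg6 and HIF2a sg4, and the ranges of the last 3 overlapped with their neighbours. With all 5 scrambled libraries taken as 1 control, CCND1 fell by 1.39 with the HIF2a guides and by 1.15 with the USP37 guides.

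**Figure D1:**
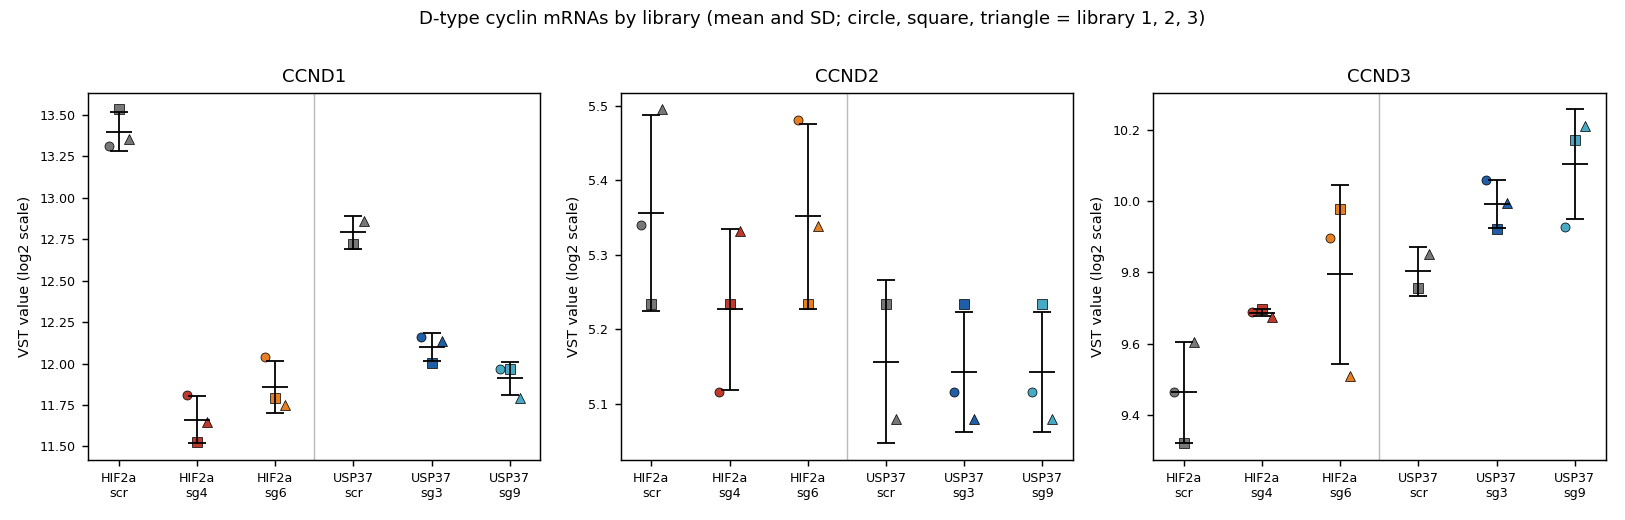
VST values (log2 scale, vertical axes that do not start at 0 and differ between panels) of CCND1, CCND2 and CCND3 in the 6 groups; each point is a library and the bars are the mean and SD. CCND1 is at 13.31 to 13.53 in the HIF2a control and at 11.53 to 12.04 in the HIF2a guide groups, whereas CCND2 is at most 5.50 in any library.

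The other D-type cyclin genes did not follow CCND1. CCND2, whose product pairs with the same kinases, was near the floor in all groups. In 12 of 17 libraries it stood at the lowest value of its replicate number, and the 5 above that, by at most 0.42, all belonged to the HIF2a experiment. CCND2 was therefore not tested with the other members; without a filter its difference was -0.07 with the HIF2a guides (limma adjusted p = 0.629) and -0.01 with the USP37 guides (limma adjusted p = 0.950). Library preparation did not mark strand, so reads of CCND2 and its antisense gene CCND2-AS1 cannot be told apart.

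CCND3, the remaining D-type cyclin gene, went the other way from CCND1, by a small step. It stood at 9.46, 9.32 and 9.60 in the HIF2a control, at 9.69, 9.70 and 9.68 with sg4 and at 9.90, 9.98 and 9.51 with sg6. Of the 6 guide libraries 5 were above every control library, and library 3 of sg6 lay inside the control range. CCND3 rose by 0.28 with the HIF2a guides (SE 0.10, limma adjusted p = 0.0342), with 0.22 for sg4 alone (limma adjusted p = 0.157) and 0.33 for sg6 alone (limma adjusted p = 0.0303). The call was lost in 11 of 28 alternative analyses, among them the fit with a replicate block (limma adjusted p = 0.0571), the fit without the 3 libraries that lay farthest from their groups (limma adjusted p = 0.0608) and the fit without control library 2 (0.21, limma adjusted p = 0.177). It was also lost without control library 1 (limma adjusted p = 0.0952), any sg4 library, or library 1 or 2 of sg6. Against all 5 scrambled libraries the difference was 0.14 (limma adjusted p = 0.298). Within libraries of the same number it was 0.33, 0.52 and -0.01.

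In the USP37 experiment CCND3 stood at 9.75 and 9.85 in the control, at 10.06, 9.92 and 10.00 with sg3 and at 9.93, 10.17 and 10.21 with sg9. All 6 guide libraries were above both controls, but the difference of 0.24 (95% interval 0.01 to 0.48) did not pass the adjusted threshold (limma adjusted p = 0.0829). It passed in 6 of 28 alternatives, among them the one without sg9 library 1 (0.29, limma adjusted p = 0.0405) and the one against all 5 scrambled libraries (0.45, limma adjusted p = 0.00166). The HIF2a and USP37 differences of CCND3 differed by -0.03 (limma adjusted p = 0.882, 95% interval -0.34 to 0.28). Its controls differed between the experiments by 0.34 (SE 0.13, limma adjusted p = 0.0354), more than the guides moved it. That call was lost without library 1 or 2 of the HIF2a control or either library of the USP37 control. Without the 3 libraries farthest from their groups it was lost too (0.27), and the call with the USP37 guides was gained (0.24).

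Set against each other within a library, the value of CCND3 minus that of CCND1 was -3.94 ± 0.24 in the HIF2a control, -1.97 ± 0.14 with sg4 and -2.06 ± 0.22 with sg6. In the USP37 experiment the same difference was -2.99 ± 0.03 in the control (n = 2), -2.11 ± 0.03 with sg3 and -1.81 ± 0.23 with sg9. Its size depends on gene length, so only its movement between groups can be read: in all 4 guide groups the gap between these cyclin mRNAs was narrower than in either control.

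CDK4, the kinase that pairs with the D-type cyclins, moved in opposite directions in the experiments. It stood at 11.26, 11.05 and 11.31 in the HIF2a control, at 10.85, 10.75 and 10.71 with sg4 and at 10.93, 11.08 and 10.80 with sg6. All guide libraries but library 2 of sg6 were below every control library. CDK4 fell by 0.35 with the HIF2a guides (SE 0.08, limma adjusted p = 0.00226), with -0.44 for sg4 alone (limma adjusted p = 0.00151) and -0.27 for sg6 alone (limma adjusted p = 0.0368). CDK4 and CDKN1B lie on chromosome 12, whose genes had a median difference of -0.10 with the HIF2a guides; with the median of each chromosome taken out, CDK4 stood at -0.25 (limma adjusted p = 0.0269) for the mean of the guides and at -0.15 (limma adjusted p = 0.255) for sg6 alone. Within libraries of the same number the difference was -0.37, -0.14 and -0.55.

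In the USP37 experiment CDK4 stood at 11.21 and 11.11 in the control, at 11.20, 11.34 and 11.25 with sg3 and at 11.51, 11.47 and 11.72 with sg9. Library 1 of sg3 lay inside the control range and the other guide libraries above it, those of sg9 highest. The mean of the guides rose by 0.26 (SE 0.09, limma adjusted p = 0.0335), and 0.41 was reached with sg9 alone (limma adjusted p = 0.00329) against 0.10 with sg3 alone (limma adjusted p = 0.490). This rise was lost with a replicate block (limma adjusted p = 0.0611), without control library 3, which had the leukocyte markers (0.20, limma adjusted p = 0.241), and without control library 2 (limma adjusted p = 0.0801). It was also lost without sg3 library 2 (limma adjusted p = 0.0619) and without sg9 library 3 (limma adjusted p = 0.0682). The difference between the experiments was 0.61 (SE 0.13, limma adjusted p = 0.000697) and was called in all 26 alternatives. Its control levels were close, with a difference of -0.05 (limma adjusted p = 0.747). CDK4 overlaps TSPAN31 and MARCH9 on the opposite strand, whose reads cannot be told apart from its own in the overlap.

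CDK6, the other partner kinase, separated the USP37 guides from each other. It stood at 11.30 and 11.35 in the USP37 control, at 11.53, 11.65 and 11.54 with sg3 and at 10.73, 10.95 and 10.69 with sg9. All 3 sg3 libraries were above both controls and all 3 sg9 libraries below them. The difference from control was 0.25 with sg3 (limma adjusted p = 0.175) and -0.54 with sg9 (limma adjusted p = 0.00340). The mean of the guides, -0.14 (95% interval -0.40 to 0.11, limma adjusted p = 0.362), therefore averages values of opposite sign. The difference sg9 minus sg3 was -0.78 for CDK6 (SE 0.12, limma adjusted p = 0.000150), a level 1.72-fold lower with sg9 that was called in all 27 alternatives. CDK4 differed the other way, 0.31 higher with sg9 than with sg3 (SE 0.09, limma adjusted p = 0.0174), a call lost without sg9 library 3 (0.23, limma adjusted p = 0.103) or sg3 library 1 (limma adjusted p = 0.0665). Within a library, CDK6 minus CDK4 was 0.17 ± 0.10 in the USP37 control (n = 2), 0.31 ± 0.02 with sg3 and -0.78 ± 0.26 with sg9.

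With the HIF2a guides CDK6 fell, and the guides did not part in this way. It stood at 11.41, 11.43 and 11.11 in the control, at 11.01, 10.92 and 10.91 with sg4 and at 10.99, 10.54 and 11.19 with sg6. The sg4 libraries were close together, the sg6 libraries were spread, and sg6 library 3 was above the lowest control. CDK6 fell by 0.39 (SE 0.11, limma adjusted p = 0.00859), with -0.37 for sg4 alone (limma adjusted p = 0.0337) and -0.41 for sg6 alone (limma adjusted p = 0.0164). The call of the mean was lost without control library 1 (-0.34, limma adjusted p = 0.0590). Differences within the same library number were uneven, at -0.41, -0.70 and -0.06. The HIF2a and USP37 effects on CDK6 differed by 0.24 (limma adjusted p = 0.251), and the controls by 0.01 (limma adjusted p = 0.957).

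**Figure D2:**
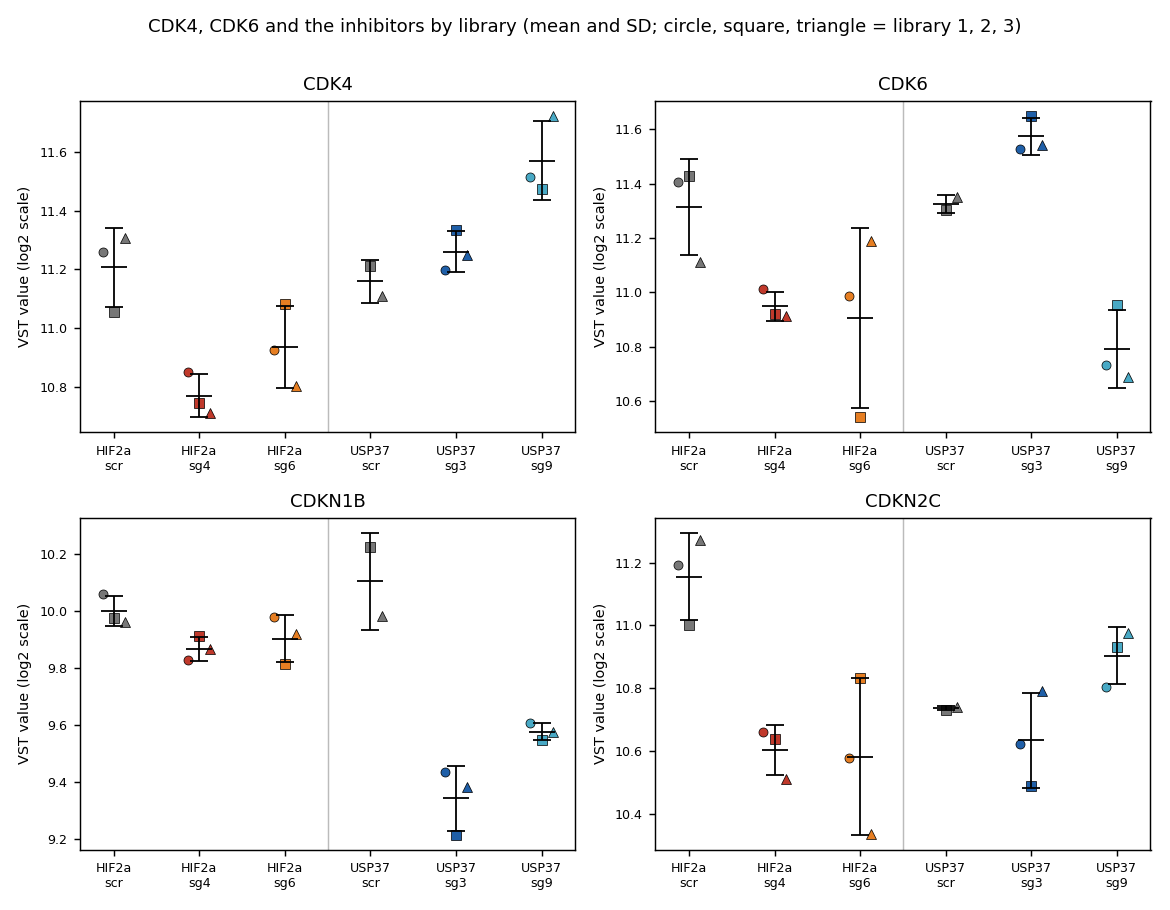
VST values (log2 scale, vertical axes that do not start at 0 and differ between panels) of CDK4, CDK6, CDKN1B and CDKN2C in the 6 groups; each point is a library and the bars are the mean and SD. CDKN1B is at 9.21 to 9.61 in the USP37 guide libraries, below all other libraries, and CDK6 is above its control with USP37 sg3 and below it with sg9.

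Of the inhibitors, CDKN1B responded in the USP37 experiment. CDKN1B encodes p27, which restrains cyclin-CDK complexes and is best known for regulation at the protein level. Its mRNA stood at 10.22 and 9.98 in the USP37 control, at 9.43, 9.21 and 9.38 with sg3 and at 9.61, 9.55 and 9.57 with sg9. All 6 guide libraries were below both controls, and sg3 was the lower of the guides. CDKN1B fell by 0.64 with the USP37 guides (SE 0.09, limma adjusted p = 9.34e-06), with -0.76 for sg3 and -0.53 for sg9, and the call held in all 28 alternatives. Without control library 3, which had the leukocyte markers, it fell by 0.76. Within libraries of the same number the difference was -0.84 and -0.50. The guides differed by 0.23, which did not pass the threshold (limma adjusted p = 0.0512) but passed it in 8 of 27 alternatives.

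In the HIF2a experiment CDKN1B stood at 10.06, 9.97 and 9.96 in the control, at 9.82, 9.91 and 9.86 with sg4 and at 9.98, 9.81 and 9.92 with sg6. The guide libraries were at or just below the control libraries, 5 of 6 below all of them. The difference was -0.11 (95% interval -0.27 to 0.05, limma adjusted p = 0.286). USP37 effect minus HIF2a effect was -0.53 for CDKN1B (SE 0.12, limma adjusted p = 0.00139), and the controls differed by 0.10 (limma adjusted p = 0.428).

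CDKN2C, which encodes the INK4 inhibitor p18, showed the reverse distribution. It stood at 11.19, 11.00 and 11.27 in the HIF2a control, at 10.66, 10.64 and 10.51 with sg4 and at 10.58, 10.83 and 10.34 with sg6. All 6 guide libraries were below every control library. CDKN2C fell by 0.56 with the HIF2a guides (SE 0.10, limma adjusted p = 0.000106), with -0.55 for sg4 and -0.57 for sg6, and was called in all 28 alternatives. Within libraries of the same number the difference was -0.57, -0.26 and -0.85.

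Against its own control CDKN2C did not pass the threshold with the USP37 guides. It stood at 10.73 and 10.74 in the control, at 10.62, 10.49 and 10.79 with sg3 and at 10.80, 10.93 and 10.98 with sg9. The sg3 libraries lay on both sides of the control and the sg9 libraries above it. The mean difference was 0.03 (95% interval -0.20 to 0.26, limma adjusted p = 0.830). That mean covers -0.10 with sg3 alone (limma adjusted p = 0.553) and 0.17 with sg9 alone (limma adjusted p = 0.278). For CDKN2C, sg9 minus sg3 was 0.27 (limma adjusted p = 0.0695), which passed the threshold in 6 of 27 alternatives. The USP37 effect was above the HIF2a effect by 0.59 (SE 0.15, limma adjusted p = 0.00314). The USP37 control itself differed from the HIF2a control by -0.42 (SE 0.12, limma adjusted p = 0.0105), at a mean of 10.74 against 10.60 and 10.58 in the HIF2a guide groups. That call was lost without either USP37 control library (limma adjusted p = 0.0601 and 0.0594). Against all 5 scrambled libraries CDKN2C fell by 0.39 with the HIF2a guides (limma adjusted p = 0.00988). On that footing its USP37 difference was -0.22 (limma adjusted p = 0.106), and it fell by 0.35 with sg3 alone (limma adjusted p = 0.0445).

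Counted together, 5 of the 6 tested members were called with the HIF2a guides, 1 higher and 4 lower, where 30.6% of all tested genes were called, 16.1% higher and 14.5% lower. The median difference of the 6 members was -0.37 and that of all tested genes -0.0045. Without the 3 libraries that lay farthest from their groups CCND1, CDK4, CDK6 and CDKN2C were still called. The USP37 guides gave 3 of 6 calls, 1 higher and 2 lower, against 44.3% of all tested genes (22.4% higher and 21.9% lower), a share near the background, and the median was -0.06. The interaction was called for 4 of 6 members (CCND1, CDK4, CDKN1B and CDKN2C) against 38.6% of all tested genes, and it was called for 4 of 6 also without USP37 control library 3. Without that library the uncalled USP37 differences were 0.20 for CDK4, 0.29 for CCND3, -0.12 for CDK6 and 0.04 for CDKN2C. For sg6 against sg4 limma called 0 of 6 members, and 0 had an unadjusted p under 0.05, against 9.22% of all tested genes. For sg9 against sg3 the count was 2 of 6 (CDK4 and CDK6) against 30.8%. Between the controls 3 of 6 members (CCND1, CCND3 and CDKN2C) were called against 40.5%, so these genes start from different levels in the experiments. With 6 genes these shares are descriptions, and only CCND1 was called lower with each of the 4 guides alone. Guide by guide, 4 of 6 members were called with sg4 (25.3% of all tested genes), 5 of 6 with sg6 (29%), 2 of 6 with sg3 (35.2%) and 4 of 6 with sg9 (47.8%). Both guides of an experiment share its control libraries, so their calls are not independent of each other.

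**Figure D3:**
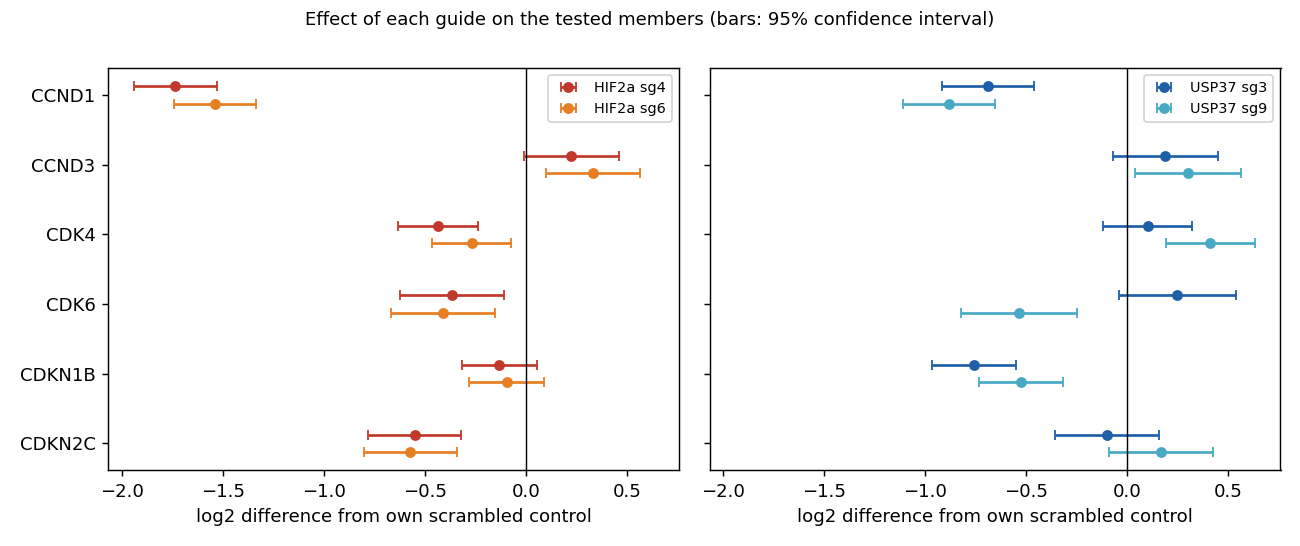
Log2 difference of each guide from its own scrambled control for the 6 tested members (horizontal axis), HIF2a guides left and USP37 guides right; points are limma estimates and bars 95% confidence intervals. CCND1 lies left of 0 for all 4 guides (-1.74, -1.54, -0.69 and -0.88), while CDK6 lies at 0.25 with sg3 and at -0.54 with sg9.

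The wider pathway was described from 7 lists of 53 genes outside the members, of which 51 were tested. With the HIF2a guides 1 was called higher and 17 lower, with a median of -0.18; with the USP37 guides 7 were called higher and 12 lower, with a median of -0.08. Both medians were below those of all tested genes, -0.0045 and 0.0060. The share called was 30.6% and 44.3% of all tested genes in these comparisons. With the HIF2a guides the genes of chromosome 13 had a median difference of -0.19 and those of chromosome 3 of -0.22. These medians were not taken out of the pathway values below, such as RB1 and TFDP1 on chromosome 13 or GSK3B and MCM2 on chromosome 3. Without USP37 control library 3, which had the leukocyte markers and leaves that control with 1 library, 8 of the 19 calls with the USP37 guides were kept, 3 higher and 5 lower, and 11 were lost. Without the 3 libraries farthest from their groups, 16 of the 18 calls with the HIF2a guides were kept, 2 were lost and 2 gained, and 4 were gained with the USP37 guides.

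Among the other CDK inhibitors CDKN1A, which encodes p21, fell steeply with the HIF2a guides. It stood at 10.94 ± 0.01 in the HIF2a control, 9.20 ± 0.07 with sg4 and 9.10 ± 0.08 with sg6, and fell by 1.79 (SE 0.08, limma adjusted p = 1.05e-13). In the USP37 experiment it was 10.51 ± 0.12 with sg3 and 10.91 ± 0.13 with sg9 against 10.61 in the control, a difference of 0.10 (limma adjusted p = 0.352). That mean covers values of opposite sign: CDKN1A rose by 0.30 with sg9 alone (limma adjusted p = 0.0155), its value was -0.09 with sg3 alone (limma adjusted p = 0.484), and sg9 minus sg3 was 0.40 (limma adjusted p = 0.00226). CDKN1C, which encodes the CIP/KIP inhibitor p57, rose by 0.88 with the HIF2a guides (SE 0.15, limma adjusted p = 8.24e-05). Its rise was 0.47 with sg4 and 1.29 with sg6, and sg6 minus sg4 was 0.82 (limma adjusted p = 0.00376). The USP37 difference of CDKN1C was 0.31 (limma adjusted p = 0.145), with 0.07 for sg3 alone and a rise of 0.55 for sg9 alone (limma adjusted p = 0.0209), and sg9 minus sg3 was 0.49 (limma adjusted p = 0.0343). CDKN2D, an INK4 gene, differed by -0.30 (limma adjusted p = 0.101) and -0.29 (limma adjusted p = 0.131). The INK4 genes CDKN2A and CDKN2B were near the floor and not tested, at the lowest value of their replicate number in 12 and 15 of 17 libraries. All libraries of CDKN2A and CDKN2B above that value were of the HIF2a experiment, by at most 0.50 and 0.35.

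Of the 3 pocket proteins, the substrates of the cyclin D kinases, 2 were called lower in each experiment, RBL1 in both. RB1 fell by 0.44 with the HIF2a guides (limma adjusted p = 0.000361) and had a value of -0.12 with the USP37 guides (limma adjusted p = 0.317). The USP37 mean for RB1 covers 0.08 with sg3 alone (limma adjusted p = 0.605) and -0.32 with sg9 alone (limma adjusted p = 0.0180). For RB1, sg9 minus sg3 was -0.40 (limma adjusted p = 0.00403). RBL1 fell by 0.32 (limma adjusted p = 0.00878) and 0.34 (limma adjusted p = 0.00916); the HIF2a call was lost without the far libraries (-0.21, limma adjusted p = 0.106). RBL2 was at 0.07 with the HIF2a guides (limma adjusted p = 0.651) and fell by 0.75 with the USP37 guides (limma adjusted p = 5.64e-05).

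Of the 10 E2F and DP genes, 4 were lower with the HIF2a guides and 0 higher. These were E2F7 (-0.89), an atypical repressor E2F, TFDP1 (-0.57), a dimer partner of E2Fs, E2F1 (-0.47), an activator, and E2F8 (-0.45), another atypical E2F. In the USP37 experiment E2F8 (-0.68), TFDP1 (-0.41) and TFDP2 (-0.38) were lower, and E2F6 (0.51) was higher, as was E2F4 (0.26), named outside the naming rule after its value was seen. Without USP37 control library 3 the calls of TFDP1 (limma adjusted p = 0.0586), TFDP2 (0.208), E2F6 (0.0626) and E2F4 (0.0900) were lost, and that of E2F8 was kept. Of the 4 genes of cyclin E and CDK2, which act after the cyclin D kinases, CCNE2 (-0.45, limma adjusted p = 0.0167) and CDK2 (-0.36, limma adjusted p = 0.0112) fell with the HIF2a guides and CCNE1 rose by 0.67 with the USP37 guides (limma adjusted p = 0.000349). In the CDK-activating kinase 0 of 3 genes were called with the HIF2a guides and CDK7, its catalytic subunit, rose by 0.41 with the USP37 guides (limma adjusted p = 0.0108).

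Of 9 genes for the turnover of cyclin D or p27 proteins, 4 fell with the HIF2a guides and 0 rose. They were SKP1 (-0.42), GSK3B (-0.39), CUL1 (-0.35) and SKP2 (-0.29), of which SKP1, CUL1 and SKP2 are subunits of the SCF ligase that marks p27. With the USP37 guides 3 of the 9 rose, namely CKS1B (0.51), an SCF cofactor, USP22 (0.32), a deubiquitinase, and AMBRA1 (0.31), a substrate receptor for D-type cyclins, and 0 fell. The calls of CKS1B (limma adjusted p = 0.0833) and AMBRA1 (limma adjusted p = 0.0971) were lost without USP37 control library 3. Among 19 RB-E2F target genes, which serve DNA replication and division, 4 were lower and 0 higher with the HIF2a guides, among them the ribonucleotide reductase subunit RRM2 (-0.68), MYBL2 (-0.43), a transcription factor, and the helicase subunit MCM2 (-0.37). With the USP37 guides 7 were lower and 0 higher, among them the helicase subunits MCM3 (-0.52) and MCM6 (-0.49) and again MYBL2 (-0.39), whose call was lost without USP37 control library 3 (-0.34, limma adjusted p = 0.0731). The list medians were -0.17 and -0.23.

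**Figure D4:**
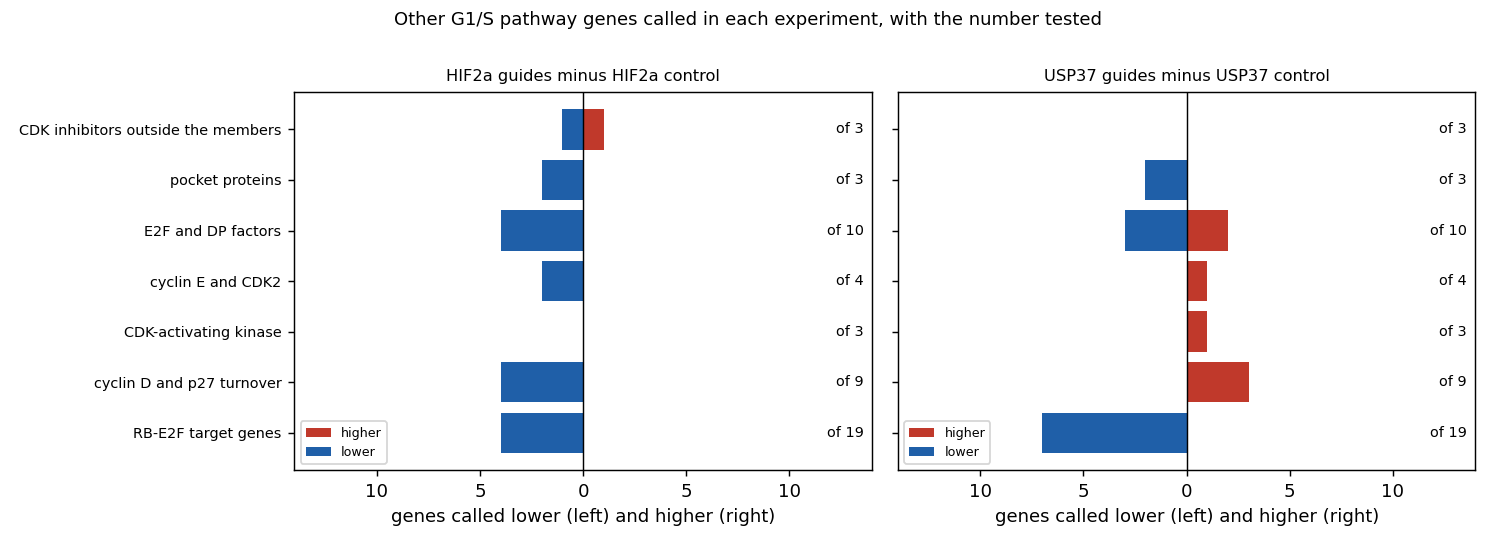
Number of genes of each pathway list called lower (left of 0) and higher (right of 0) by limma in the HIF2a and USP37 experiments, with the number tested at the right edge. The target gene list has 4 genes lower in the HIF2a panel and 7 lower in the USP37 panel, of 19, and the protein turnover list has 4 lower in the first and 3 higher in the second, of 9.

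Each called member was matched with the 3 tested genes whose values, centred on their own mean, had the smallest root mean square difference from it over the 17 libraries. All share libraries and controls, so the values describe these libraries only. For CCND1, whose own root mean square spread was 0.62, the nearest were CADM1 (0.178), TCEA3 (0.210) and ZHX2 (0.230). For CCND3, with a spread of 0.24, they were POLR2C (0.0977), RPS4X (0.103) and RAB5C (0.103). NQO1 (0.0972), PCCB (0.0996) and PSMD9 (0.101) were nearest to CDK4, whose spread was 0.27. CDK6, with a spread of 0.32, had DNAJC13 (0.0983), ASXL2 (0.0988) and CDC42BPA (0.114). CDKN1B, with a spread of 0.27, had MAGED2 (0.0970), UBE2Q2 (0.101) and RFX5 (0.108). For CDKN2C, with a spread of 0.24, the nearest were UNG (0.110), E2F1 (0.121) and MAZ (0.133), of which E2F1 is on the E2F list above. No member was among the 3 nearest genes of another member.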

How the data were processed

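Polyadenylated RNA of 17 libraries (TruSeq RNA v2, paired reads of 150 bases) was measured. The authors deposited 1 table of batch-corrected, variance-stabilised log2 values per gene symbol. Of tools and builds the submitters' processing notes list STAR 2.5.2b, cutadapt, DESeq2, Salmon and hg19, with no role or order. Which batch variable was corrected is not stated; the means of each gene over libraries of the same number were equal to within 6.39e-14, so a replicate term had been taken out and p-values tend to be too small. The USP37 control had libraries 2 and 3 only, so taking out that term can also shift differences that involve this control. Counts were not recovered and the depth per library is unknown.

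Groups were taken from the treatment labels. The 6 group means were fitted in limma 3.58.1 (R 4.3.3, trend, 11 residual degrees of freedom) over the 12484 genes with a mean 1 or more log2 units over 5.143, the 1st percentile of gene means, with Benjamini-Hochberg adjustment within a contrast. The fit was tested on simulated data. Named genes were the members, the targets, the CIP/KIP and INK4 genes, up to 4 called genes per pathway list and the 3 most alike genes per called member. One called gene of the target list is not reported here. Members and lists were chosen with earlier results of these data known. Gene overlaps come from a GENCODE annotation. Alternatives changed the filter, moderation, weights, centring, block, control or libraries. They include fits without a library of the other experiment. In these a comparison within an experiment keeps its difference, and only its SE and p-value can move.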

Additional observations from a re-analysis of the deposited data

Results flagged for a closer look

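For 4 members the effect of the USP37 guides differed from that of the HIF2a guides by limma's test of the difference itself. USP37 effect minus HIF2a effect was 0.85 for CCND1 (SE 0.13, limma adjusted p = 3.13e-05), with effects of -0.79 and -1.64. It was 0.61 for CDK4 (SE 0.13, limma adjusted p = 0.000697), with effects of 0.26 and -0.35. For CDKN1B it was -0.53 (SE 0.12, limma adjusted p = 0.00139), with effects of -0.64 and -0.11. For CDKN2C it was 0.59 (SE 0.15, limma adjusted p = 0.00314), with effects of 0.03 and -0.56. Controls of CCND1 and CDKN2C differed between the experiments, by -0.61 and -0.42.

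For 2 members the USP37 guides differed from each other. USP37 sg9 minus sg3 was 0.31 for CDK4 (SE 0.09, limma adjusted p = 0.0174), higher with sg9. It was -0.78 for CDK6 (SE 0.12, limma adjusted p = 0.000150), lower with sg9 in 3 of 3 libraries. USP37 mRNA itself was 8.33 ± 0.10 with sg3 and 8.13 ± 0.14 with sg9.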

How the results depend on the processing

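Over the 6 main comparisons, 972 member values were computed under up to 28 alternatives per comparison, and 924 stayed on their side of the threshold; 28 fell below the threshold, 20 passed it and 0 called values reversed. The count with the HIF2a guides, 5, ran from 3 to 5 when 1 library was left out, with 3 without control library 1, where CCND3 and CDK6 were lost. The count for sg9 against sg3, 2, became 4 with array weights and 4 once the 3 libraries farthest from their groups were left out, and ran from 1 to 4 when 1 library was left out (1 without sg9 library 3, 4 without library 2 or 3 of HIF2a sg6). The count between the controls, 3, ran from 1 to 3, with 1 without either USP37 control library, where CCND3 and CDKN2C were lost. The count with the USP37 guides, 3, ran from 2 to 4. The interaction count stayed at 4 and the count for sg6 against sg4 at 0. For single guides, the calls of CDK4 and CCND3 with sg6 were lost in 10 of 28 alternatives each, and those of CDK6 in 9 with sg4 and 4 with sg6. The cause of these changes was not tested.

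With a replicate block the counts were 4 with the HIF2a guides, 2 with the USP37 guides, 2 between controls, 2 for sg9 against sg3, 0 for sg6 against sg4 and 4 for the interaction. CCND3 between the controls lost its call (limma adjusted p = 0.0610). Libraries of the same number within an experiment had deviations correlated at -0.55 to 0.22 over 16 pairs. A replicate term had been taken out of the deposited values, which lowers such correlations, so this check cannot show whether the numbers pair the libraries. Over all genes, 1151 were called for sg6 against sg4, and 573 with array weights, 413 without the 3 far libraries, 500 without sg4 library 2 and 612 without sg4 library 3. Between controls 5051 were called, and 3347 without USP37 control library 3; for sg4 alone 3159, and 5150 with array weights; for sg6 alone 3624, and 2021 without the far libraries; with the USP37 guides 5525, and 3683 without control library 2. The depth is unknown, and the scale flattens near the floor, which limits CCND2, CDKN2A and CDKN2B.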
